A study of Rattus norvegicus with 8 samples.

Results

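The genes described here are 9 genes of fat uptake, storage and release: Lipe, Cidea, Cidec, Fabp4, Pparg, Lpl, Cd36, Cfd and Pck1. They were chosen by symbol, and every Illumina RatRef-12 probe that the platform annotation maps to these symbols was taken, which gave 9 of 22523 probes, 1 for each gene. All 9 were among the 13114 probes that passed the detection filter (detection p under 0.05 on at least 2 of 8 arrays). Total RNA of pooled trigeminal nerves from untreated 85-day-old rats was measured on 8 arrays. The groups were BDIX, BDIV, and a pair of congenic strains. BDIX.BDIV-Mss4a is called Mss4a below, and BDIX.BDIV-Mss4d is called Mss4d. By their names both carry a BDIV segment of the Mss4 locus on the BDIX background. Every strain was represented by 2 arrays, a female and a male pool of nerves, with no second pool of the same sex. How many animals went into a pool is not given in the sources used here. The p-values therefore rest on how far the sex difference varies between strains and on array noise.

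Fat cells take up fatty acids that lipoprotein lipase (Lpl) frees from blood lipoproteins, carry them with CD36 at the membrane and FABP4 in the cytosol, store them as triglyceride in lipid droplets coated by CIDE and perilipin proteins, and release them again through a chain of lipases that includes hormone-sensitive lipase (Lipe). The nuclear receptor PPARG switches on many of these genes. In peripheral nerve, fat cells lie in the outer sheath, while Schwann cells, endothelium and macrophages use several of the same genes.

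Promoters of Cidea, Cd36, Cfd and Pck1 are shown first, to place these genes in the rat genome. The RefSeq promoter table (GRCr8) holds 250 bases before and 50 bases after the start site and covered 6 of the 9 genes with 7 promoters. Those of Cidec and Pparg are not printed. The Cd36 window lies inside the annotated span of the gene (18209088 to 18302142). Capitals mark matches on either strand to the nuclear receptor core motif (AGGTCA), the core of the cAMP response element (ACGTCA), the TATA box (TATAAA) and the GC box (GGGCGG). The sequences run 5′ to 3′ along the strand of the gene.
Cidea, chr18:63164567-63164866, plus strand: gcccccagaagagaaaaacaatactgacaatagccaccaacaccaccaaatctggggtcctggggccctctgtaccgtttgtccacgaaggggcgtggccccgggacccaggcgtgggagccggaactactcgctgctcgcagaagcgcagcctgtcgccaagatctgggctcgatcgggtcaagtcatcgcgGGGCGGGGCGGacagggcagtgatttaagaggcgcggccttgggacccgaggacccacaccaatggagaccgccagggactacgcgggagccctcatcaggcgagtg
Cd36, chr4:18246332-18246631, plus strand: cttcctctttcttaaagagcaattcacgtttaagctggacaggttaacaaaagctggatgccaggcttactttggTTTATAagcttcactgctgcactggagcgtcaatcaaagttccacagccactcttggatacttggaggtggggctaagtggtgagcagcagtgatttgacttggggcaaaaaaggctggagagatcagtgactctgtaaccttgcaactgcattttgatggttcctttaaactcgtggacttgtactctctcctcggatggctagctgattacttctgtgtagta
Cfd, chr7:10465447-10465746, minus strand: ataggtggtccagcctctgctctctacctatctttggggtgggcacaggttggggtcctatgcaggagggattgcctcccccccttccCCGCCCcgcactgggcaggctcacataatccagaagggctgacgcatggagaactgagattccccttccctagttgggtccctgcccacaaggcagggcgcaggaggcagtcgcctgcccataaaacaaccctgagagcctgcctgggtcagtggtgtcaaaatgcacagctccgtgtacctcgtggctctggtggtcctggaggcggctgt
Pck1, chr3:182348322-182348621, plus strand: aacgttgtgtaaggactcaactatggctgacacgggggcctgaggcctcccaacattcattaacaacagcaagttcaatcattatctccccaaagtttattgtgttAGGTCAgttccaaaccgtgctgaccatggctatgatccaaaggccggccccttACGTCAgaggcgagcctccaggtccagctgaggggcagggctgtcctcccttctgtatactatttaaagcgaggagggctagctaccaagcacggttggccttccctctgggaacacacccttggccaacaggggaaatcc
The Pck1 window held the nuclear receptor motif at position -144 and the cAMP response motif at -91, counted from the start site. These letters occur in 16.2% and 7.94% of the 33469 promoters of the table. GC boxes, present in 33.1% of all promoters, were found in 3 of the 7 windows (Cidea, Cfd and 1 of 2 Pparg promoters), and TATA letters, present in 14.2%, in 2 (Cd36 at -175 and that Pparg promoter). The direct repeat bound by PPARG with its partner RXR (2 copies of AGGTCA with 1 base between them) and the C/EBP palindrome (TTGCGCAA) had no match in these 7 windows, as in nearly all promoters (0.0538% and 0.17% hold them). A match is a description of letters and no evidence of binding.

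The arrays differed in brightness by strain. The median bead signal ran from 80.2 in the BDIX female to 145 in the Mss4d female array, and the share of probes above background from 47.7% to 54.3%. The Mss4a female and male arrays had medians of 93.5 and 98.7, but an upper quartile of only 209 and 215. In the other arrays the upper quartile ran from 333 (BDIX male) to 485 (Mss4d female). The part of this gap in the Mss4a differences was not tested. The labels and file headers name no batch, so array brightness and strain cannot be told apart. Levels below are normalized log2 signals, comparable between arrays for 1 gene but not between genes.

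The name of the group, adipocyte genes, was checked against markers of fat cells. Of 14 adipocyte markers 12 had a probe, and 3 of them were not above background on any of the 8 arrays: Adipoq (adiponectin), Lep (leptin) and Aqp7 (the glycerol channel of fat cells). Retn (resistin) and Adrb3 (the beta-3 adrenergic receptor) were above background on 1 array each, that of the Mss4d male pool. The markers found on all 8 arrays, Gpd1, Dgat2, Agpat2 and Acsl1, are enzymes of lipid synthesis that other cells use as well. Ucp1, the uncoupling protein of brown fat, was not above background on any array. The genes named in this check were picked out after their values were seen. Of the other markers, Slc2a4 (the insulin-regulated glucose transporter) was found on 7 arrays, Thrsp on 6 and Cebpa (a transcription factor of fat cells and other cells) on 5. Per array 5 to 9 of the 12 were found, and Cfd, a fat cell product among the genes described, was found on all 8. The markers thus differ among themselves, and the 9 genes are called lipid storage and lipolysis genes here, without naming a cell type.

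**Figure D1:**
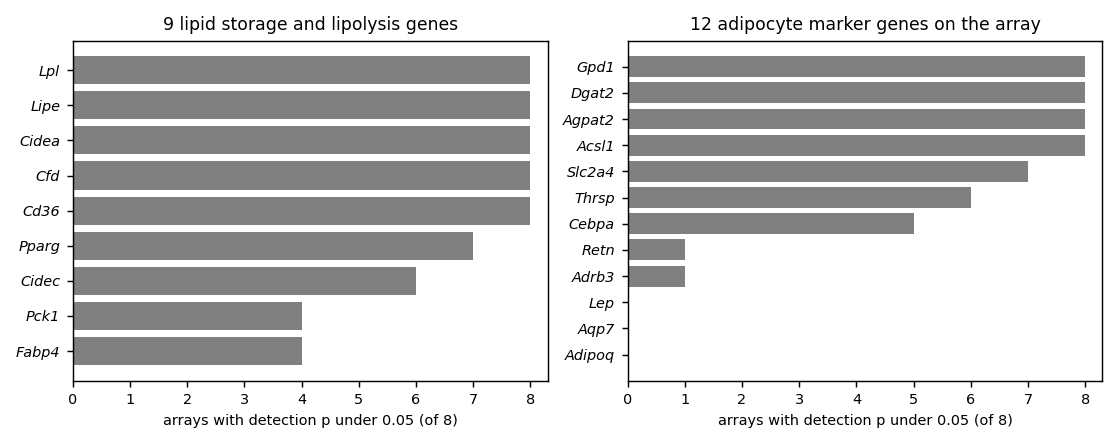
Number of the 8 arrays on which each gene had a detection p under 0.05. Left, the 9 lipid storage and lipolysis genes, found on 4 to 8 arrays. Right, the 12 adipocyte markers with a probe, of which Adipoq, Lep and Aqp7 were found on 0 arrays and Retn and Adrb3 on 1.

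Of the 9 genes, Lipe, Cidea, Lpl, Cd36 and Cfd were above background on all 8 arrays, Pparg on 7, Cidec on 6, and Fabp4 and Pck1 on 4. The non-normalized signals of Lpl lay between 1142 and 4826, far above background. Those of Pck1 (66.5 to 158), Cidec (80.5 to 172) and Pparg (78.9 to 168) stayed close to it. Strain means of the 9 genes were spread over a median of 1.49 on the log2 scale from the lowest to the highest strain, against 0.82 for all tested probes. The genes were chosen with earlier results of these data known, so this contrast is a description and no test. Among the 5 genes above background on all arrays the spread ran from 0.43 for Lpl to 2.15 for Cidea.

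Each pair of strains and the sexes were compared in a limma fit of the 8 arrays that had terms for strain and for sex, with Benjamini-Hochberg adjusted p under 0.05 over all 13114 probes as the threshold. In BDIV against BDIX 1 of the 9 genes rose (Cidea) and 1 fell (Cd36). There, 10% of all tested probes were higher, 11% lower and 21% called in either direction. In Mss4a against BDIX 2 rose (Lipe and Pck1) and 0 fell, with 4.78% of all probes higher and 7.46% lower (12.2% in either direction). In Mss4d against BDIX Lipe alone rose, with 1.38% of all probes higher and 3.96% lower (5.34% in either direction). Set against BDIV, 2 of 9 rose in Mss4a (Cfd and Pck1) and 1 fell (Cidea), with 16.8% of all probes higher and 16.3% lower (33.1% in either direction). In Mss4d against BDIV 3 rose (Lipe, Cfd and Cidec) and 1 fell (Cidea), with 14.9% of all probes higher and 15.1% lower (30% in either direction). Between Mss4a and Mss4d limma called 0 of the 9 and 1.22% of all probes (0.297% higher and 0.923% lower). At an unadjusted p under 0.05 it was 1 of the 9, Fabp4, and 3190 of all probes. Comparisons with the same reference strain share its arrays, and so are not independent of each other. The median difference of the 9 genes was -0.11 in BDIV, 0.36 in Mss4a and 0.51 in Mss4d against BDIX, while that of all probes lay between -0.03 and 0.01 in these comparisons.

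**Figure D2:**
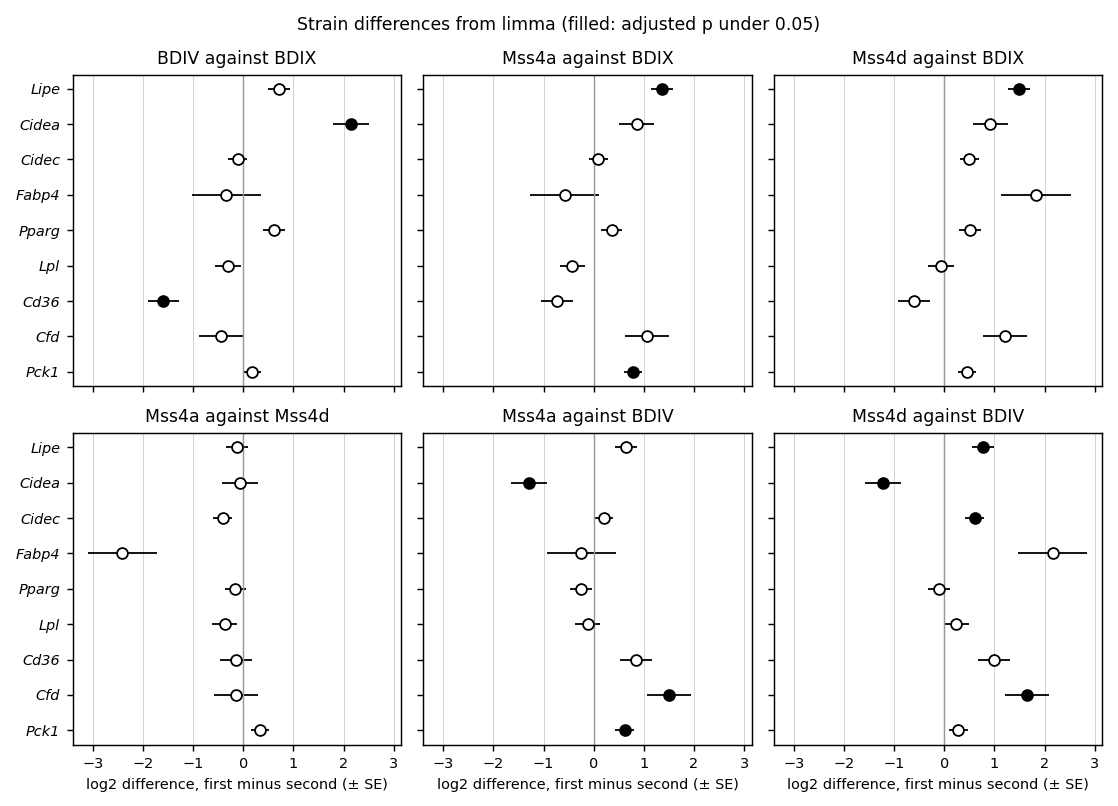
Log2 difference of each gene in the 6 strain comparisons, first strain minus second, with the standard error from limma. Filled points passed an adjusted p under 0.05. There are 12 filled points, at most 4 in a panel and none between Mss4a and Mss4d. Fabp4 in BDIV and Mss4a and Pck1 in BDIX were not above background, so their fitted differences are not measured levels on both sides.

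Cidea, which encodes a lipid droplet protein that helps small droplets merge and is known best from brown fat, was highest in BDIV. Its level was 8.11 in the female and 8.29 in the male BDIV pool, against 5.38 and 6.72 in BDIX. It stood at 6.98 and 6.84 in Mss4a and at 7.00 and 6.95 in Mss4d. Both BDIV arrays lay above all 6 others, the Mss4 arrays lay close together, and the BDIX pools were 1.34 apart. On the BDIX female array the non-normalized Cidea signal was 82.6 (detection p 0.0158), close to background. Cidea rose 4.44-fold in BDIV against BDIX (2.15 ± 0.36 on the log2 scale, SE, limma adjusted p = 0.0111), with a difference of 2.73 in females and 1.57 in males. It was lower in Mss4a than in BDIV by a difference of -1.29 ± 0.36 (adjusted p = 0.0315) and in Mss4d by -1.23 ± 0.36 (adjusted p = 0.0398). The Mss4a and Mss4d levels did not pass against BDIX (0.85 ± 0.36 and 0.92 ± 0.36, adjusted p = 0.150 and 0.157). The call against BDIX was lost without the BDIV female, BDIV male or BDIX female array (adjusted p from 0.0118 to 0.126 over the 8 arrays left out), and the difference was 1.31 without background correction. Both Mss4 calls were lost without either array of BDIV or of the congenic strain compared (adjusted p up to 0.187 for Mss4a and 0.210 for Mss4d), and with no detection filter (0.0726 and 0.0920).

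Whole nerve was measured, so fewer cells of a type and less RNA per cell cannot be told apart, for Cidea and for every gene below. Cell markers also moved with BDIV. The summed normalized level of the 11 sensory neuron markers was 128901 and 132852 in the BDIV arrays against 56374 to 103758 in the others. That of the 7 Schwann cell markers with a probe was 53536 and 62792 against 87869 to 115789. The part of these shifts in the Cidea difference was not tested. Cidec, the related droplet protein that gives white fat cells their single large droplet, was close to background everywhere. It stood at 5.92 and 5.66 in the Mss4d pools, at 5.11 and 5.26 in BDIV, at 5.33 and 5.26 in BDIX and at 5.49 and 5.27 in Mss4a. The Mss4d arrays were the highest, while the other strains overlapped, apart from Mss4a, which lay just above BDIV. In Mss4d against BDIV it rose by 0.61 ± 0.19 (limma adjusted p = 0.0492). That call was lost with any 1 of the 8 arrays left out (0.0519 to 0.331), and without background correction, where the difference was 0.25.

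Lipe, which encodes hormone-sensitive lipase, the enzyme that splits diglycerides when fat cells are stimulated, was higher in both congenic strains than in BDIX. Its level was 6.81 in the female and 6.99 in the male BDIX pool, 7.55 and 7.66 in BDIV, 7.87 and 8.65 in Mss4a, and 8.20 and 8.58 in Mss4d. The BDIX pools were the lowest and the BDIV pools came next, while the Mss4a and Mss4d ranges overlapped. Lipe rose 2.56-fold in Mss4a against BDIX (1.36 ± 0.22, limma adjusted p = 0.0192) and 2.81-fold in Mss4d against BDIX (1.49 ± 0.22, adjusted p = 0.0225), in both sexes each time. In the Mss4a arrays salivary and nasal gland markers summed to 5260 and 5064, against 92.8 to 204 in the others. Of the 7 with a probe, 6 were above background on each Mss4a array and 1 or 2 on each other array. A marker could thus pass the detection filter through the Mss4a arrays alone, and no count of those that rose is read as a result. Of 8 skeletal muscle markers tested, 3 rose in Mss4a against BDIX, and 4 rose and 1 fell against BDIV. The part of these shifts in the Mss4a differences of Lipe, Cidea and Cfd was not tested. Both Mss4d arrays held thyroid transcripts, described below, whose part in the Mss4d differences was not tested either. In Mss4d Lipe also rose against BDIV (0.78 ± 0.22, adjusted p = 0.0353). Neighbours in this order did not pass: BDIV against BDIX stood at 0.71 ± 0.22 (adjusted p = 0.0598), Mss4a against BDIV at 0.65 ± 0.22 (0.0576) and Mss4a against Mss4d at -0.13 ± 0.22 (0.742). The Mss4a call was lost without the Mss4a male array or any 1 of the BDIX and BDIV arrays (adjusted p up to 0.0818), and the Mss4d call without either Mss4d or BDIV array or the BDIX female array (up to 0.140) or with the arrays of the 2 strains alone (0.0522). Against BDIV the call was lost without any 1 of the 4 arrays of the strains compared (up to 0.262) and with no sex term (0.0629).

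Cd36, the membrane receptor for long-chain fatty acids found on fat cells, muscle, small-vessel endothelium and macrophages, was lowest in BDIV. The BDIV female pool was at 6.26 and the BDIV male pool at 6.51, against 7.93 and 8.02 in BDIX. The Mss4a pools were at 6.68 and 7.79 and the Mss4d pools at 6.75 and 7.99. The BDIV arrays lay below all others, and in each congenic strain the male pool was near BDIX and the female pool near BDIV. Cd36 fell by 1.59 ± 0.32 on the log2 scale in BDIV against BDIX (limma adjusted p = 0.0172), 3.01-fold, with differences of -1.67 in females and -1.51 in males. Mss4d and Mss4a did not pass against BDIV (0.99 ± 0.32 and 0.85 ± 0.32, adjusted p = 0.0538 and 0.0778) or against BDIX (-0.60 ± 0.32 and -0.74 ± 0.32, 0.271 and 0.158). The call was lost without the BDIV female, BDIV male or BDIX female array (adjusted p from 0.0141 to 0.136 over the 8 arrays left out), and the difference was -1.01 without background correction. The summed level of the 9 endothelial markers with a probe was 6936 and 7915 in BDIV and 10189 to 15749 in the other arrays, and the part of this shift in the Cd36 difference was not tested. Macrophage markers, which Cd36 also accompanies, were within the range of the others (5140 and 5253 in BDIV, 2330 to 7025 elsewhere). In the GRCr8 annotation Cd36 (chromosome 4, 18209088 to 18302142) lies beside the related genes Cd36l1 and Cd36-ps1, which its probe may also read.

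Lpl, the lipase that frees fatty acids from lipoproteins at the vessel wall, differed least. Its level lay between 11.09 (Mss4a male) and 11.82 (BDIX male), and the strain means between 11.35 in Mss4a and 11.78 in BDIX. No strain comparison passed, and the difference farthest from 0 was -0.43 ± 0.25 in Mss4a against BDIX (limma adjusted p = 0.277).

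Fabp4, the fatty acid carrier of fat cells, macrophages and small-vessel endothelium, was seen mainly in 1 pool. Its level was 8.81 in the Mss4d male and 5.74 in the Mss4d female array, and 5.24 and 5.66 in the BDIX female and male arrays. It was not above background on either array of BDIV (5.13 and 5.09) or Mss4a (4.77 and 4.96). Both Mss4d arrays exceeded all others, but the Mss4d male array by 3.07 over the female. With this normalization the mean of the 2 Mss4d arrays was at least 4.27-fold higher than BDIV and at least 3.56-fold higher than Mss4a. Neither fold is a minimum for the Mss4d female array. The limma adjusted p of the fitted differences from BDIV and Mss4a was 0.0528 and 0.106, and against BDIX the difference was 1.83 ± 0.69 (0.150). None of these passed with all 8 arrays. Without the Mss4d female array the differences were 3.61 in Mss4d against BDIV, 3.27 in Mss4d against BDIX and -3.85 in Mss4a against Mss4d, and all 3 passed (limma adjusted p = 0.00179, 0.00283 and 0.00235). Without the Mss4d male array they were 0.72, 0.38 and -0.97, and none of the 3 passed (0.134, 0.482 and 0.254). The fitted differences against BDIV and Mss4a are no bounds, since Fabp4 was not above background there. A bound sets the Mss4d mean against a floor for each array where the gene was dim, which is the lowest signal among probes above background there or the signal of the gene, whichever is higher.

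**Figure D3:**
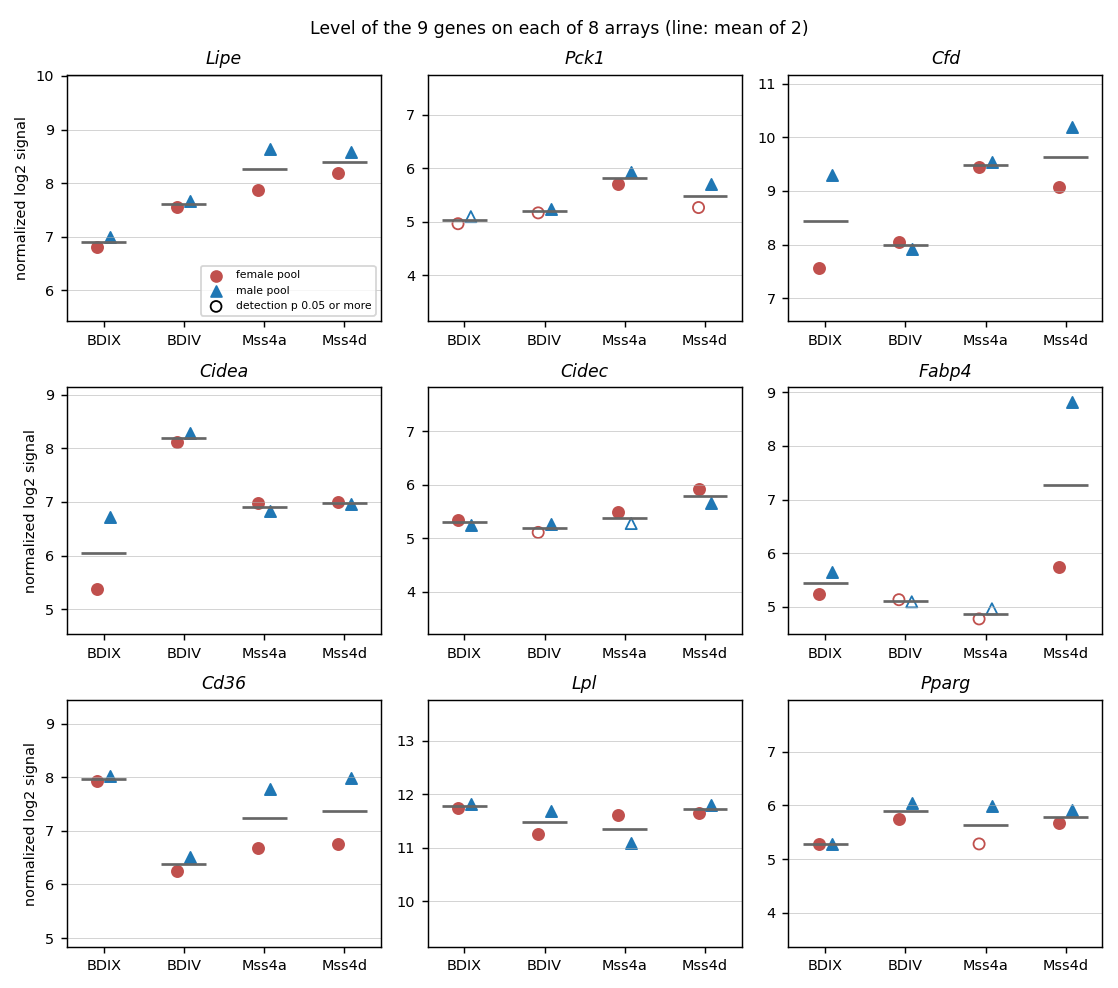
Normalized log2 signal of each gene on the 8 arrays, by strain, circles for female and triangles for male pools, with a line at the mean of the 2. Open symbols had a detection p of 0.05 or more, and every panel spans the same range of log2 units. Cidea is highest in BDIV (8.11 and 8.29), Cd36 is lowest there (6.26 and 6.51), Lipe is lowest in BDIX (6.81 and 6.99), and Fabp4 reaches 8.81 in the Mss4d male pool alone.

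Pparg, the nuclear receptor that drives fat cell formation, was close to background and overlapped between several strains. It stood at 5.29 and 5.28 in BDIX, 5.74 and 6.05 in BDIV, 5.28 and 5.99 in Mss4a, and 5.67 and 5.92 in Mss4d. No comparison passed, the nearest being BDIV against BDIX (0.61 ± 0.22, limma adjusted p = 0.0874).

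Pck1, which encodes cytosolic phosphoenolpyruvate carboxykinase, the supplier of glycerol phosphate for fat cells and of glucose in liver and kidney, was faint. It was not above background on either BDIX array (4.96 and 5.10), and above it on 1 of 2 arrays in BDIV (5.17 and 5.24) and in Mss4d (5.27 and 5.70). Both Mss4a arrays were above background, at 5.70 and 5.93. The Mss4a arrays lay above those of BDIX and BDIV and overlapped those of Mss4d. Against BDIX Mss4a was at least 1.56-fold higher with this normalization (limma adjusted p of the fitted difference = 0.0401). Against BDIV it rose by 0.61 ± 0.18 (0.0412). The call against BDIX was lost with any 1 of the 8 arrays left out (adjusted p = 0.0519 to 0.137), and that against BDIV without any 1 of the BDIV, Mss4a and Mss4d arrays (up to 0.262). The difference from BDIX was 0.33 without background correction and 1.28 with arrays scaled to their medians, where the median of all probes in that comparison also moved to 0.29. That from BDIV was 0.25 and 1.18, with the median of all probes again at 0.29. Neither Pck1 call passed without background correction (0.0979 and 0.127). Nor did either pass with the authors' processed values (0.46 and 0.34, limma adjusted p = 0.0726 and 0.0986). The part of the gland and muscle markers that rose in Mss4a was not tested for Pck1 either. Of 9 liver and kidney markers with a probe 1 was tested, G6pc1 of glucose release, named after its value was seen. It rose in Mss4a against BDIX (0.86 ± 0.20, adjusted p = 0.0375) and against BDIV (1.07 ± 0.20, 0.00837), and its part was likewise not tested.

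Cfd, which encodes complement factor D, a serine protease secreted in quantity by fat cells and also made by macrophages, was higher in the congenic strains than in BDIV. It stood at 9.44 and 9.54 in Mss4a, at 9.08 and 10.19 in Mss4d, at 8.05 and 7.92 in BDIV, and at 7.56 and 9.31 in BDIX. The Mss4 arrays all lay above the BDIV arrays, while the BDIX pools were 1.75 apart and fell on either side of BDIV. Cfd rose 3.14-fold in Mss4d against BDIV (1.65 ± 0.44, limma adjusted p = 0.0299) and 2.84-fold in Mss4a against BDIV (1.51 ± 0.44, adjusted p = 0.0371). Against BDIX the differences of 1.20 ± 0.44 and 1.06 ± 0.44 did not pass (adjusted p = 0.141 and 0.147). Without the BDIV male array the differences from BDIV were 1.09 in Mss4d and 0.95 in Mss4a, neither past the threshold (0.230 and 0.262). The calls were also lost without the BDIV female array, without the Mss4a female array for Mss4a or either Mss4d array for Mss4d, with no detection filter (0.0791 and 0.0907) and with no sex term (0.0546 and 0.0675).

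The Mss4d male pool, which held the highest Fabp4 and Cfd, also held thyroid transcripts. Thyroglobulin (Tg) had a non-normalized signal of 39938 there and 6623 in the Mss4d female array, against 69.2 to 89.8 in the other arrays, where it was not above background. The summed normalized level of the 9 thyroid markers with a probe was 67636 in the Mss4d male and 5371 in the Mss4d female array, against 132 to 245 elsewhere. Thrsp, a lipid synthesis regulator that responds to thyroid hormone, had a signal of 5441 in the Mss4d male array and 64.1 to 287 in the others. Thrsp also belongs to the 12 adipocyte markers with a probe, so it counts in their sum. That sum was 8029 in the Mss4d male array and 3296 to 5464 in the others, while Adipoq, Lep and Aqp7 were not above background there. The part of these transcripts in the Mss4d levels of Fabp4, Cfd, Lipe, Cidea and Cidec was not tested. Without the Mss4d male array, Lipe was at 1.47 against BDIX on the Mss4d female array, which also held Tg, and at 1.49 with both. Against BDIV the Mss4d differences were then 0.77 for Lipe, -0.98 for Cidea, 0.71 for Cidec and 1.38 for Cfd. With both Mss4d arrays they were 0.78, -1.23, 0.61 and 1.65.

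**Figure D4:**
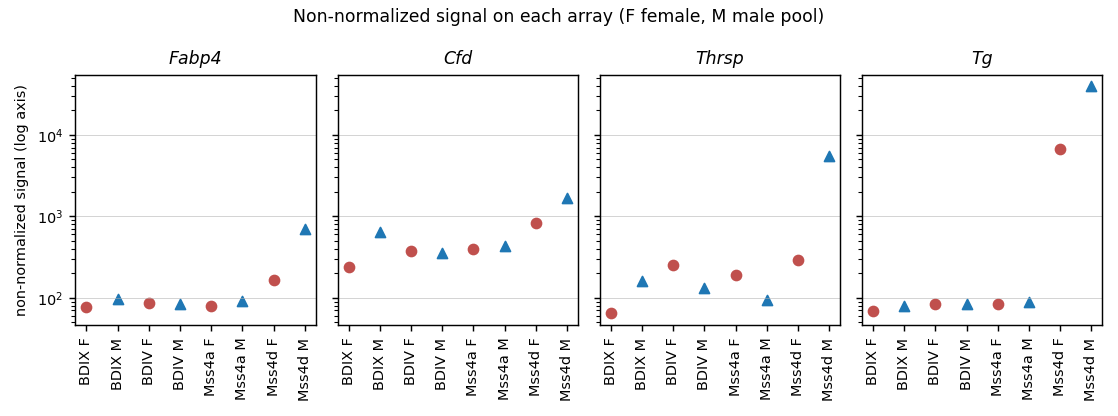
Non-normalized signal of Fabp4, Cfd, Thrsp and Tg on each array, on a log axis, circles for female and triangles for male pools. The Mss4d male array is the highest in each panel, at 698, 1690, 5441 and 39938.

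Between the sexes limma called 0 of the 9 genes and 0% of all probes. At an unadjusted p under 0.05 it was 1 of the 9 (Cd36) and 526 of 13114 probes. Cd36 was higher in the male pool of all 4 strains, by 0.09 to 1.24 (mean 0.67 ± 0.22, limma adjusted p = 0.926). Lipe (0.36 ± 0.15) and Pck1 (0.22 ± 0.13) were also higher in 4 of 4 male pools, and did not pass. Of the 9 genes 8 had a fitted difference above 0. The widest male minus female gaps were 3.07 for Fabp4 in Mss4d, 1.75 for Cfd in BDIX, 1.34 for Cidea in BDIX and 1.24 for Cd36 in Mss4d. A strain by sex interaction leaves no residual degrees of freedom and cannot be tested here.

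The 9 genes did not follow 1 common pattern. Over the 36 pairs of genes, Pearson's r across the 8 arrays had a median of 0.24, with 25 pairs above 0. Lipe and Pck1 were the closest (0.86) and Cidea and Cd36 the most opposed (-0.73). These values describe 8 arrays that share strain and brightness. The mean of the centred levels of the 9 genes was highest in the Mss4d male (0.77) and lowest in the BDIX female array (-0.49). Among 5558 other probes with a symbol and a range of at least 1 log2 unit, the closest to that mean were those of Hdc, the histamine-forming enzyme (r = 0.98), Eprs1, a transfer RNA synthetase (0.97), Irgm, an immunity-related GTPase (0.96), and Zfp57, Cysrt1, Mgst2, Cib1 and Gimap5 (0.95 each). All 8 were highest in the Mss4d male array, over n = 8 arrays, which follows from choosing them by likeness to a mean that peaks there.

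Other genes of the pathway were counted from lists. Against BDIX, the shares of all probes called higher and lower, to set beside these counts, were 10% and 11% in BDIV, 4.78% and 7.46% in Mss4a, and 1.38% and 3.96% in Mss4d. Of 9 tested genes of droplet proteins and lipolysis 3 rose and 2 fell in BDIV against BDIX (median -0.02, all probes -0.03), 1 rose in Mss4a and 1 fell in Mss4d against BDIX. The adenosine receptor gene Adora1, which restrains lipolysis in fat cells and transmission in neurons, rose in BDIV (2.57 ± 0.20), as did Prkar2b, a regulatory subunit of the cAMP-dependent kinase that activates lipases (1.13 ± 0.29). The droplet coat gene Plin3 fell (-1.26 ± 0.22). Chosen after their values were seen, Plin2, another droplet coat gene, rose (1.06 ± 0.18) and Pnpla2, the lipase that starts triglyceride breakdown, fell (-1.01 ± 0.25). Abhd5, the activator of that lipase, fell in Mss4d against BDIX (-1.33 ± 0.27). Without background correction that difference was -0.80 and did not pass (adjusted p = 0.0586).

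Of 12 triglyceride synthesis genes 1 fell in BDIV, 2 in Mss4a and 1 in Mss4d against BDIX, and 0 rose. Nothing particular to the list is read from these counts. Gpd1, which makes glycerol phosphate, fell in BDIV (-0.91 ± 0.26, not past the threshold with median scaling, adjusted p = 0.0509) and in Mss4a (-1.11 ± 0.26), and the acyltransferase gene Agpat1 in Mss4a (-0.92 ± 0.18) and Mss4d (-0.87 ± 0.18). Its relative Agpat2, mutated in a human lipodystrophy, was higher in Mss4a (0.89) and in Mss4d (1.19 ± 0.18) than in BDIV. Without background correction these differences were 0.52 and 0.73. Lpin1, a phosphatidate phosphatase, did not pass in any comparison.

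Of 10 fatty acid uptake and binding genes 1 rose and 3 fell in BDIV against BDIX. Fabp3, the muscle and neuronal carrier, rose (1.74 ± 0.39), and the transporter Slc27a1 (-1.28 ± 0.20) and the caveola gene Cav1 (-1.27 ± 0.35) fell, the latter not without background correction (adjusted p = 0.0558). Cav1 also fell in Mss4a (-2.20) and in Mss4d (-3.10 ± 0.35) against BDIX. Cavin1, another caveola gene, passed as lower in Mss4d against BDIX, but was not above background on the Mss4d male array. Without background correction its difference was -1.49 and did not pass (adjusted p = 0.0542). Of 15 genes of fat cell transcription 1 rose and 3 fell in BDIV, with Klf5 at 1.62 ± 0.25 and Nr1h3, a sterol-sensing receptor, at -1.35 ± 0.18. None of the 15 passed in Mss4a or Mss4d against BDIX, and Thrsp and Dlk1, an inhibitor of fat cell formation, did not pass in any comparison.

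Of 6 tested secreted proteins of fat cells 1 fell in each strain against BDIX, and it was Sfrp5, a Wnt antagonist, each time (-1.21 ± 0.26 in BDIV, -1.97 ± 0.26 in Mss4a and -2.29 ± 0.26 in Mss4d). Metrnl, another secreted protein, was higher in Mss4a (0.96 ± 0.21) and Mss4d (0.71 ± 0.21) than in BDIV, while Agt (angiotensinogen) and Apln (apelin) did not pass. Of 7 tested genes of brown fat heat production 1 passed as lower in BDIV against BDIX. It was Cpt1b, the fatty acid importer of muscle and brown fat mitochondria, which was not above background on either BDIV array and did not pass without background correction (adjusted p = 0.0504). In Mss4a Acaa2 of fatty acid oxidation rose (0.86 ± 0.18), and 0 of the 7 passed in Mss4d.

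The genes lie on different chromosomes of GRCr8. Lipe lies on chromosome 1 (90093433 to 90112117), Fabp4 on chromosome 2 (93488251 to 93492961), Pck1 on chromosome 3 (182348572 to 182354521) and Cfd on chromosome 7 (10463773 to 10465496). Lpl lies on chromosome 16 (25596205 to 25621928) and Cidea on chromosome 18 (63164817 to 63190384). Cidec (148124924 to 148137806) and Pparg (150095743 to 150221104) lie on chromosome 4 with Cd36. Each gene was read by 1 probe, whose sequence was not used here, so lower binding to a strain variant and lower expression cannot be told apart.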

How the data were processed

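Per the labels, total RNA was amplified to biotinylated cRNA, hybridised to Illumina RatRef-12 arrays, and the submitters' processing notes name GenomeStudio. The table of non-normalized values that the authors deposited gives linear bead intensity per probe. The deposited detection p-value beside each signal ranks the probe against background in steps of 0.00121. The authors' value table is also linear intensity, a straight line of the non-normalized signal on each array. Its background and scaling options are not given in the sources used here.

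The non-normalized table was processed in R 4.3.3 with limma 3.58.1: neqc (offset 16, background inferred from detection p-values, quantile normalization, log2), then lmFit and eBayes with strain and sex over 8 arrays, 3 residual degrees of freedom, 7 comparisons, two-sided Benjamini-Hochberg adjustment over 13114 probes. Summed marker levels are sums of normalized linear signal less the offset. Of 22523 probes 13793 had 1 symbol and 8730 none, and 13752 were matched to current symbols by gene identifier. For a list gene with several probes the one of highest mean level was used. The number of arrays limits the precision, and 2 arrays per strain are pools. The fit was tested on simulated data.

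Named genes are all 9 members, up to 4 genes per list with the widest spread of strain means, and the 8 probes closest to the members' mean, except where stated. The members and lists were chosen with earlier results of these data known. Alternatives were no background correction, median scaling, the value table of the authors, testing all probes unfiltered, requiring detection p under 0.01 on each of 8 arrays, the arrays of the 2 strains alone, no sex or strain term, and each array left out in turn.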

Additional observations from a re-analysis of the deposited data

Results flagged for a closer look

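In 5 of 18 sets of 4 arrays of 1 sex, a gene's highest or lowest array stood far from the other strains by Dixon's test at the 95% level, all among the male pools. Chance flags about 1 in 20 such sets. Among males the BDIV array was high for Cidea (8.29, others 6.72 to 6.95) and low for Cd36 (6.51, others 7.79 to 8.02). The Mss4d male array was high for Cidec (5.66, others 5.26 to 5.27). The BDIX male array was low for Pparg (5.28, others 5.92 to 6.05), and the Mss4a male array was low for Lpl (11.09, others 11.69 to 11.82).

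In 7 of 54 strain differences the female and the male pools went opposite ways, each with 1 array a strain and sex, so the difference between the sexes was not tested. The strain pairs reuse the same arrays, and the share among all probes was not worked out. The count is therefore a description. Cfd in BDIV against BDIX was 0.49 in females and -1.39 in males, and in Mss4a against Mss4d 0.36 and -0.65. Lpl in Mss4a against BDIV was 0.36 and -0.61. Pparg was -0.0038 and 0.71 in Mss4a against BDIX, and -0.38 and 0.07 in Mss4a against Mss4d. Lipe in Mss4a against Mss4d was -0.33 and 0.07, and Cidec in BDIV against BDIX was -0.22 and 0.0017.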

How the results depend on the processing

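The 12 calls among the 9 genes kept their sign under all alternatives run, but 0 of 12 passed throughout when single arrays were left out, and 3 passed under every other alternative that tested them: Cidea and Cd36 in BDIV against BDIX, and Lipe in Mss4a against BDIX. Requiring detection on all arrays left 4 of the 9 genes, without Cidea. Where a strain kept 1 array, its spread was taken from the other strains. No paired analysis was possible because the labels number no replicates, and sex is a term of the fit. Signals close to background limit Pck1, Cidec, Pparg and Fabp4, and Cidea on the BDIX female array.

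The number of the 9 genes called in Mss4a against BDIX was 2, 1 without background correction, with the authors' values, with detection on all arrays or with the arrays of the 2 strains alone, and 4 with median scaling. In Mss4d against BDIX it was 1, and 0 with the arrays of the 2 strains alone. In Mss4a against Mss4d it was 0, and 1 with median scaling. In Mss4a against BDIV it was 3, and 1 with no filter. In Mss4d against BDIV it was 4, and 2 with no filter or with no sex term. With each array left out it ranged from 0 to 3 in BDIV against BDIX, 0 to 1 in Mss4a against BDIX, 0 to 2 in Mss4d against BDIX, 0 to 1 in Mss4a against Mss4d, 0 to 3 in Mss4a against BDIV and 0 to 4 in Mss4d against BDIV, and was 0 throughout between the sexes. The cause of these changes was not tested. The 65 calls among pathway list genes kept their sign under median scaling, the authors' values and no background correction, an alternative added after seeing the data, and 64, 61 and 56 still passed. Of named calls, median scaling lost Gpd1 in BDIV against BDIX, and no background correction lost Cav1 and Cpt1b in BDIV against BDIX and Abhd5 and Cavin1 in Mss4d against BDIX.

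Over all probes, calls with each array left out ranged from 14 to 2781 in BDIV against BDIX (2758 with all), 0 to 1241 in Mss4a against BDIX (1605), 0 to 1177 in Mss4d against BDIX (700), 0 to 252 in Mss4a against Mss4d (160), 460 to 4876 in Mss4a against BDIV (4340) and 485 to 4325 in Mss4d against BDIV (3937). Median scaling gave 3286, 1601 and 4116 calls in Mss4a against BDIX, Mss4d against BDIX and Mss4a against Mss4d, of which 74.7%, 36.5% and 80.4% were higher (39.1%, 25.9% and 24.4% before), and 70.6% were higher in Mss4a against BDIV (50.9% before). It moved the median of all probes to 0.29 in Mss4a against BDIX and 0.20 against Mss4d. The count in Mss4d against BDIX was 303 with no filter and 110 with its 4 arrays alone. In Mss4a against Mss4d it was 79 without background correction, 21 with no filter, 0 with the 4 arrays alone, 249 with detection on all arrays and 258 with no sex term.

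Signs turned only for differences that did not pass in either setting. With median scaling Fabp4 stood at 0.26 in Mss4a against BDIX and 0.72 against BDIV, Lpl at 0.27 in Mss4d against BDIX, and Pparg at 0.30 in Mss4a against BDIV. In Mss4a against Mss4d Cidea was then 0.11, Cidec 0.38 and Pparg 0.52. With each array left out, the range in BDIV against BDIX was -0.28 to 0.055 for Cidec, -0.97 to 0.29 for Fabp4 and -1.14 to 0.25 for Cfd, which was 0.11 without the BDIV male array. In Mss4a against Mss4d it was -0.41 to 0.15 for Lipe, -0.38 to 0.25 for Cidea, -0.42 to 0.11 for Pparg, -0.74 to 0.0084 for Lpl, -0.52 to 0.24 for Cd36 and -0.55 to 0.26 for Cfd. In Mss4a against BDIV it was -0.88 to 0.39 for Fabp4, -0.52 to 0.0075 for Pparg and -0.50 to 0.25 for Lpl. For Lpl it was -0.14 to 0.016 in Mss4d against BDIX, -0.027 to 0.51 in Mss4d against BDIV and -0.10 to 0.22 between the sexes.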
